A study of Homo sapiens with 3 samples.

Results

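Receptor tyrosine kinases are cell-surface receptors that carry the signals of growth factors into the cell. A ligand outside brings receptors together, their kinase domains phosphorylate each other on tyrosine, and adaptor proteins such as GRB2 and FRS2 dock there and start the RAS-ERK and PI3K cascades. In small cell lung cancer, a neuroendocrine tumor, FGFR1 and MET are among the receptors studied as drug targets. The receptors were described in H446 cells, a human small cell lung cancer line, that received vehicle alone, BAS at 5 µM or BAS at 10 µM and were collected after 48 h. BAS is 3-bromoascochlorin, a bromine-bearing relative of the fungal compound ascochlorin, and the title of the study names its antitumor effects and the MAPK pathway, which lies downstream of these receptors. All 3 groups were the same unmodified line in medium with fetal bovine serum, which itself brings growth factors, and each group was 1 library.

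The members were a named list of 47 genes: receptor tyrosine kinases by family, and FGFRL1 and IGF2R, which resemble or share ligands with them but have no kinase domain. Of these, 43 had a row among the 16793 gene symbols of the series, and 23 of them averaged 1 FPKM or more over the 3 libraries. The other 20 were lower, and 4 (ALK, KDR, KIT and ROR2) were not analysed here. FPKM, fragments per kilobase of gene and total fragments in the library, is a level per length, so that levels of different genes can be ranked within a library.

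Each group has 1 library, so replicate error is unknown and nothing could be tested. The limit for a 2-fold difference was 1 on the scale of log2(FPKM + 1), applied to the 11512 genes of the series that averaged 1 FPKM or more, of which the 23 members are a part. Where 3 values follow each other with no group named, they are those of vehicle, 5 µM and 10 µM. This scale understates differences of low genes, while ratios given in words such as "0.582 times vehicle" are plain ratios of FPKM. The sum of all genes was 487923, 507342 and 492102 FPKM, and how many reads lie behind a value is unknown. Neuroendocrine markers were present in every library, with NEUROD1 at 104.96, 93.15 and 91.62 FPKM and INSM1 at 72.85, 81.79 and 95.14 FPKM. Some genes listed as markers of other cells were also high, namely the endothelial cadherin gene CDH5 at 57.56, 55.75 and 51.99 FPKM and the collagen genes COL1A2 at 389.39, 412.40 and 370.87 FPKM and COL1A1 at 63.57, 85.84 and 98.52 FPKM. COL1A1 was thus 1.55 times vehicle at 10 µM. The other 4 endothelial markers were at or under 0.46 FPKM in every library, and the fibroblast and pericyte markers DCN, LUM and RGS5 at or under 0.31 FPKM. The 6 measured neuroendocrine markers summed to 326.2, 383.0 and 448.8 FPKM, a sum in which UCHL1 was at 82.21, 131.19 and 176.51 FPKM. At 10 µM 4 of the 6 were above vehicle, and 2, NEUROD1 and SYP (17.3, 12.77 and 13.25 FPKM), were below it. Of 4 epithelial markers, KRT8 was at 4.81, 1.12 and 1.44 FPKM and KRT18 at 2.83, 0.60 and 0.68 FPKM. EPCAM was at 0.24, 0.03 and 0.03 FPKM and CDH1 at 0.61, 0.28 and 0.27 FPKM. Of 4 blood markers, CD68 was at 2.85, 6.05 and 7.34 FPKM and PTPRC at 1.03, 0.92 and 1.09 FPKM. CD14 and SPI1 were at or under 0.25 FPKM. For CD68, 92.6% of the 50-base sequences of its transcript also occur in transcripts of other genes. The neuroendocrine sum was lowest and all 4 epithelial markers were highest with vehicle. The part of these, of CD68 and of COL1A1 in the receptor differences was not tested.

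The receptor set of H446 cells was led by FGFR1, a receptor of fibroblast growth factors, and EPHA3, a receptor of membrane-bound ephrin-A ligands. FGFR1 was at 185.07 FPKM in vehicle-treated cells, 133.92 at 5 µM and 107.65 at 10 µM. EPHA3 was at 174.47 FPKM in vehicle-treated cells, 120.14 at 5 µM and 105.20 at 10 µM. They held the first and second rank among the members in each library, and were the 2 members at or above 100 FPKM throughout. Both were highest with vehicle and lowest at 10 µM. FGFR1 lay at 0.582 times vehicle at 10 µM, and EPHA3 at 0.603 times. In RNA from a whole culture, fewer cells with a transcript and less transcript per cell cannot be told apart.

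A second tier of 7 genes had means between 20 and 100 FPKM. It held the pseudokinase receptors PTK7 and RYK, which bind or modulate WNT signals, the collagen receptors DDR1 and DDR2, the neurotrophin-3 receptor NTRK3 (TRKC), FGFR2, and EPHB4, a receptor of ephrin-B2. Then came 7 genes between 5 and 20 FPKM (ROR1, FGFRL1, IGF2R, TYRO3, MET, MERTK and FGFR4) and 7 between 1 and 5 FPKM (EPHA7, EPHA2, IGF1R, EPHA5, INSR, FGFR3 and TEK). Just inside the filter was TEK, the angiopoietin receptor, with a mean of 1.12 FPKM, and just outside it PDGFRB, a platelet-derived growth factor receptor, with a mean of 0.927 FPKM.

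**Figure D1:**
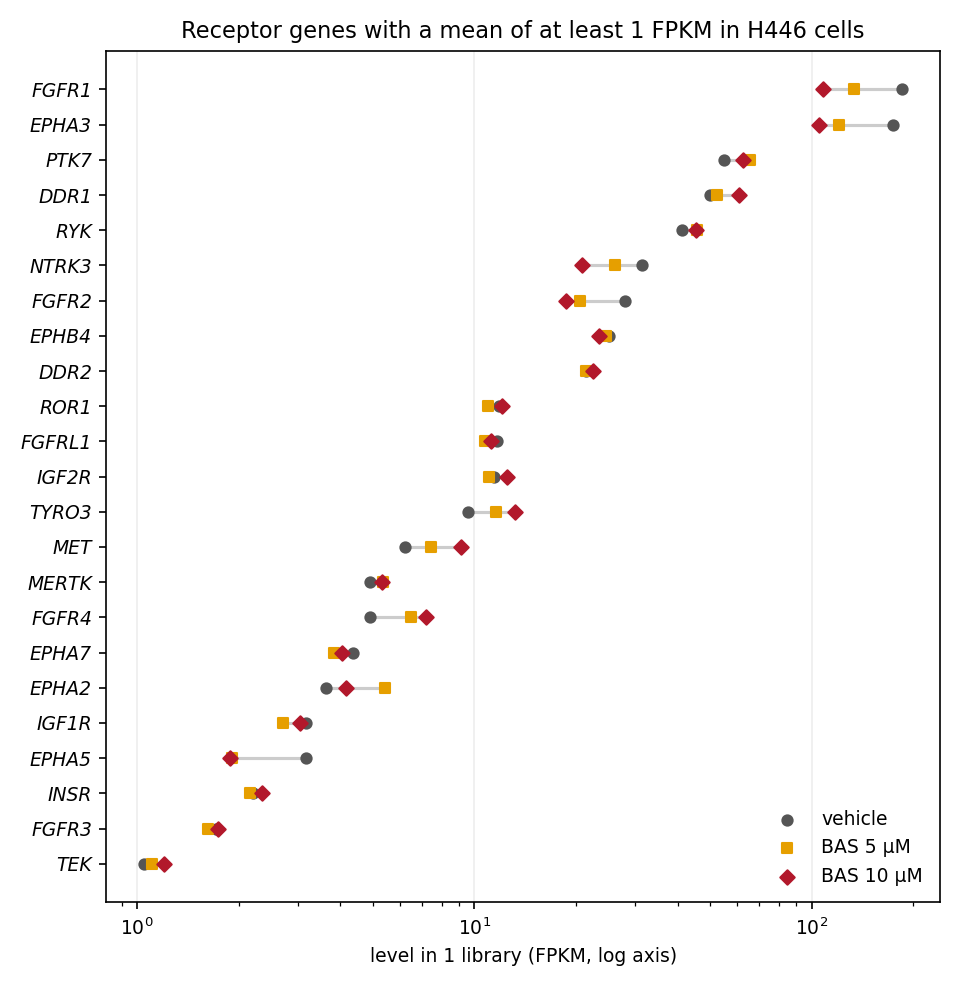
Levels in FPKM on a log axis of the 23 receptor genes that averaged 1 FPKM or more, one row per gene and one point per library (circle, vehicle; square, 5 µM BAS; diamond, 10 µM BAS). FGFR1 and EPHA3 stand at the top in each library, and their 3 points are spread with vehicle highest.

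None of the 23 members past the filter was 2-fold higher or lower than vehicle. At 10 µM, 0 of the 23 members were 2-fold higher and 0 were 2-fold lower, where 1.31% of all 11512 genes were higher and 0.643% lower. At 5 µM it was 0 and 0 of 23, where 0.539% of all genes were higher and 0.208% lower. Between 10 µM and 5 µM it was again 0 and 0 of 23, where 0.0434% of all genes were higher and 0.0434% lower. With so few genes past the limit in the whole table, a count of 0 among 23 is near the background. The members had a median difference of 0.06 at 10 µM on the log2 scale, where the median of all genes was 0.05, and of −0.02 at 5 µM, where it was 0.02. The middle of the members lay between quartiles of −0.09 and 0.14 at 10 µM, and that of all genes between −0.15 and 0.25. The comparisons of each dose with vehicle share the vehicle library, so they are not independent of each other.

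At the lower limit of 1.5-fold on the log2(FPKM + 1) scale, FGFR1 and EPHA3 were lower at 10 µM and none of the 23 was higher. That is 2 of 23 members (8.70%) lower, where 3.44% of all genes were, and 0 of 23 higher, where 6.04% of all genes were. By plain ratio EPHA5 (0.595 times vehicle), NTRK3 (0.662) and FGFR2 (0.666) were also 1.5-fold lower at 10 µM, and EPHA5 at 5 µM (0.604). The share of all genes by plain ratio was not counted. On the log2 scale at 5 µM, 0 of 23 were 1.5-fold higher and 0 lower, where 3.01% of all genes were higher and 1.60% lower. Between the doses it was 0 and 0 of 23, where 0.434% of all genes were higher and 0.408% lower. The log2 difference of FGFR1 was −0.78 at 10 µM, a value that 176 of the 11512 genes (1.53%) matched or went below, and that of EPHA3 was −0.72 (1.95%). Among the 703 genes that averaged 100 FPKM or more, 7 were as low as FGFR1 or lower at 10 µM (0.996%) and 8 as low as EPHA3 (1.14%), each count including the gene itself. At 5 µM the differences were −0.46 for FGFR1 and −0.54 for EPHA3.

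**Figure D2:**
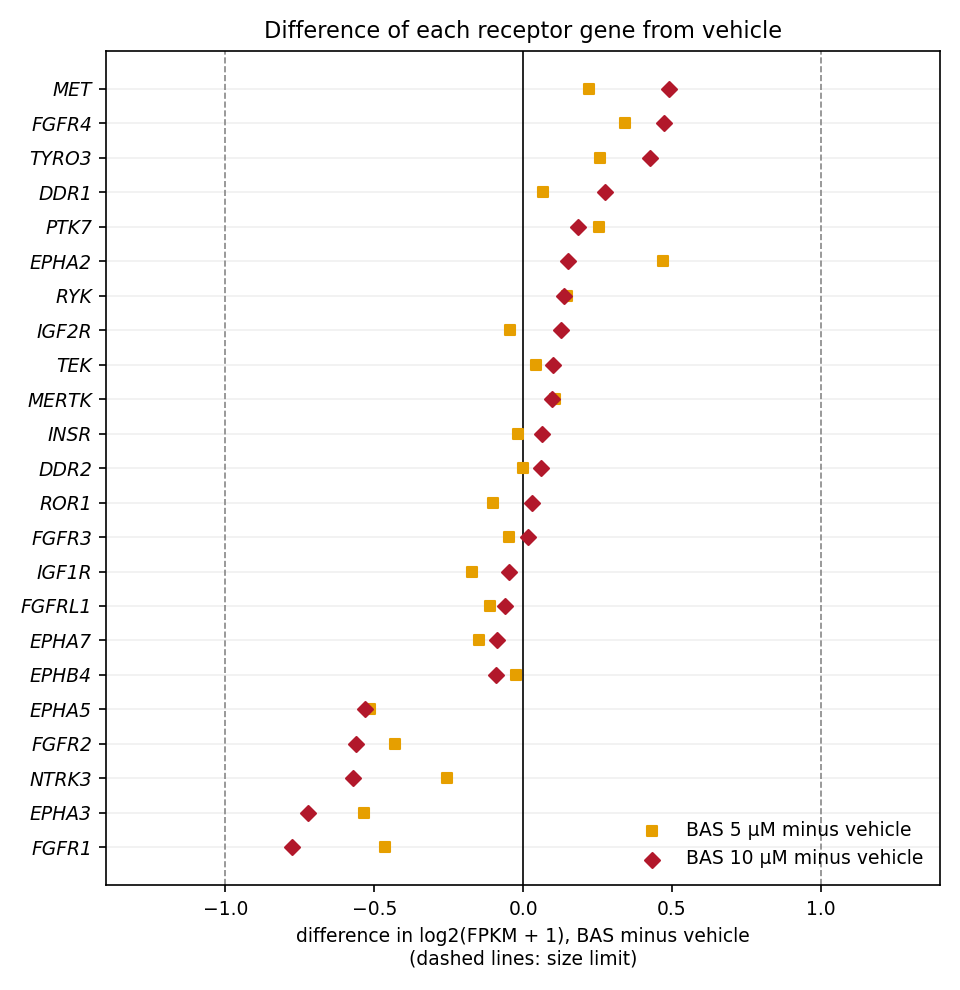
Differences in log2(FPKM + 1) from vehicle of the same 23 genes, ordered by the value at 10 µM (square, 5 µM minus vehicle; diamond, 10 µM minus vehicle; dashed lines, the limit of 1). The 5 genes at the bottom, from FGFR1 to EPHA5, lie between −0.78 and −0.53 at 10 µM, and the highest, MET, at 0.49.

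Within the FGFR family the members lay on both sides of vehicle. FGFR2, whose splice forms bind different fibroblast growth factors, was at 27.99 FPKM in vehicle-treated cells, 20.54 at 5 µM and 18.63 at 10 µM, which is 0.666 times vehicle at 10 µM. FGFR4, the partner of the co-receptor KLB in bile acid control in the liver, was at 4.89 FPKM in vehicle-treated cells, 6.47 at 5 µM and 7.17 at 10 µM. So FGFR2 had its highest level with vehicle, and FGFR4 its lowest. FGFR3 was at 1.71, 1.62 and 1.74 FPKM in the same order of libraries, and FGFRL1, which binds fibroblast growth factors without a kinase domain, at 11.70, 10.75 and 11.17 FPKM. FGFR1 made up most of the family, whose 5 members summed to 231.4 FPKM in vehicle-treated cells, 173.3 at 5 µM and 146.4 at 10 µM. Values per gene do not separate splice forms.

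The ephrin receptors, which signal between touching cells, were dominated by EPHA3. EPHA5 was at 3.16 FPKM in vehicle-treated cells, 1.91 at 5 µM and 1.88 at 10 µM, with both treated libraries below vehicle and close to each other. EPHA7 was at 4.36, 3.84 and 4.04 FPKM. EPHA2, often high in epithelial tumors, was highest at 5 µM, with 3.64 FPKM in vehicle-treated cells, 5.43 at 5 µM and 4.15 at 10 µM. Its log2 difference of 0.47 at 5 µM was the highest of the 23 members at that dose, and from 5 µM to 10 µM it differed by −0.32. EPHB4 was at 25.06, 24.63 and 23.48 FPKM, a narrow range across the libraries. EPHA4, EPHB1, EPHB2, EPHB3 and EPHB6 were under 1 FPKM in every library. EPHB3 was at 0.50, 0.62 and 0.96 FPKM. The 5 EPHA genes summed to 186.2 FPKM in vehicle-treated cells, 131.9 at 5 µM and 116.2 at 10 µM, and the 5 EPHB genes to 25.71, 25.40 and 24.72 FPKM.

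Of the neurotrophin receptors, NTRK3 was at 31.37 FPKM in vehicle-treated cells, 26.09 at 5 µM and 20.77 at 10 µM. It was highest with vehicle and lowest at 10 µM, at 0.662 times vehicle. Its log2 difference was −0.57 at 10 µM and −0.26 at 5 µM. After removal of trends with GC content and length these values were −0.31 at 10 µM and 0.04 at 5 µM. NTRK2, the receptor of brain-derived neurotrophic factor, had 0.01 FPKM in the vehicle library and 0 in both BAS libraries.

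Furthest above vehicle at 10 µM on the log2 scale were MET, FGFR4, TYRO3 and, by less, DDR1. MET, the receptor of hepatocyte growth factor, was at 6.22 FPKM in vehicle-treated cells, 7.41 at 5 µM and 9.14 at 10 µM, which is 1.47 times vehicle at 10 µM. Its log2 difference of 0.49 at 10 µM was the highest of the members, and 9.25% of all genes were as high or higher. TYRO3, a receptor of the phosphatidylserine-bridging proteins PROS1 and GAS6, was at 9.56 FPKM in vehicle-treated cells, 11.62 at 5 µM and 13.20 at 10 µM. Its relative MERTK, which serves in the uptake of dead cells, was at 4.91, 5.36 and 5.32 FPKM, and AXL, the third of that family, at 0.17, 0.14 and 0.26 FPKM. DDR1 was at 50.07 FPKM in vehicle-treated cells, 52.45 at 5 µM and 60.83 at 10 µM, and DDR2 at 21.45, 21.45 and 22.40 FPKM. In MET, TYRO3 and DDR1 the 10 µM library was highest and the vehicle library lowest. Their log2 differences at 10 µM were 0.49, 0.43 and 0.28, all under the limit, and that of DDR1 at 5 µM was 0.07, and near 0 with trends removed.

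The promoters of 3 receptors that were lower at 10 µM, and of MET, which was higher, are shown as the 200 bases before the gene's start, so that the sequences can be set beside the levels. They are RefSeq sequences of build GRCh38.p14, matched by symbol. Capitals mark matches on either strand to CANNTG (E-box, the letters bound by NEUROD1 and other basic helix-loop-helix factors) and GGGCGG (GC-box, bound by SP1), and no marked matches overlap. TGANTCA (AP-1) and TGACGTCA (CRE) were searched too and had no match in these windows. The windows are chr3:89107421-89107620 on the + strand for EPHA3, chr10:121598445-121598644 on the − strand for FGFR2 (the most upstream of 5 listed starts), chr15:88256740-88256939 on the − strand for NTRK3 and chr7:116671996-116672195 on the + strand for MET.
EPHA3: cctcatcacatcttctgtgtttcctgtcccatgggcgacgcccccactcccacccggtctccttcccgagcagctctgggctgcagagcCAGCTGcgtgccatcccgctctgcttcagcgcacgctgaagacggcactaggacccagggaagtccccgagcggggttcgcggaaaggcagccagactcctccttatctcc
FGFR2: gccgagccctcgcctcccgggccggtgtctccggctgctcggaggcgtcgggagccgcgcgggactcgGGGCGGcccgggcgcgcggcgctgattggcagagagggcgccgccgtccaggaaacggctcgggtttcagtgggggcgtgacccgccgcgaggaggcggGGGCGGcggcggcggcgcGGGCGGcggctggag
NTRK3: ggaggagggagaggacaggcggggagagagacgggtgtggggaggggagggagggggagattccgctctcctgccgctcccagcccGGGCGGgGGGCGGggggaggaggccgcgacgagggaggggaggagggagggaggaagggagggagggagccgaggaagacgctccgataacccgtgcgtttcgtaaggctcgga
MET: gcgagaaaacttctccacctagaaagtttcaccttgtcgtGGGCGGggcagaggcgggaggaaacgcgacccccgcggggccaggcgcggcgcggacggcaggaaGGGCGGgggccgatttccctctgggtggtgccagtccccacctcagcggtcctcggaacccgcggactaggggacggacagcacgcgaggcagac
EPHA3 had 1 E-box and no GC-box, with a GC content of 64.5%, while FGFR2 had 3 GC-boxes (GC content 81.5%), NTRK3 had 2 (72.0%) and MET had 2 (69.5%). Receptors on either side of vehicle thus held GC-boxes, which 40.1% of all 35116 promoter windows of this length hold. An E-box is in 54.0% of all windows, AP-1 letters in 5.38% and CRE letters in 1.57%. Of the 23 members past the filter, 22 matched the table, with 42 windows, 1 for each listed start. A GC-box was in 24 of these 42 windows (57.1%) and an E-box in 16 (38.1%), while AP-1 letters were in 1 (2.38%, DDR1) and CRE letters in 1 (2.38%, EPHA2). The median GC content of the 42 windows was 65.2%, where that of all windows was 59.0%. Its part in these shares was not tested. Windows of 1 gene can overlap and are not independent. A match is a run of letters and no proof of a bound site, and no match says only that the letters are not in this window.

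The remaining members past the filter stayed close to vehicle at 10 µM. PTK7, a pseudokinase of planar cell polarity, was at 54.81 FPKM in vehicle-treated cells, 65.58 at 5 µM and 62.42 at 10 µM. RYK was at 41.27, 45.79 and 45.44 FPKM, and ROR1, a WNT5A receptor, at 11.85, 10.98 and 12.11 FPKM. The insulin and insulin-like growth factor receptors INSR and IGF1R, which drive PI3K signals, had 2.20, 2.16 and 2.34 FPKM (INSR) and 3.17, 2.70 and 3.04 FPKM (IGF1R). IGF2R, which clears IGF2 and sorts lysosomal enzymes, was at 11.39, 11.03 and 12.53 FPKM, and TEK at 1.05, 1.11 and 1.20 FPKM. These 7 genes had log2 differences between −0.05 and 0.18 at 10 µM. At 5 µM PTK7 lay further from vehicle, with a difference of 0.255, and 17.9% of all genes were as high or higher. In PTK7 and RYK both treated libraries were above vehicle, while in INSR, IGF1R, IGF2R and ROR1 the 5 µM library was the lowest. For the last 4 genes at least 1 of the differences from vehicle changed sign under another scaling or with trends removed.

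FGFR1 and EPHA3 were a large share of the summed receptor level. All 43 members summed to 696.8 FPKM in vehicle-treated cells, 598.8 at 5 µM and 562.4 at 10 µM. FGFR1 and EPHA3 were 51.6% of that sum with vehicle, 42.4% at 5 µM and 37.8% at 10 µM. Without this pair the other 41 members summed to 337.3, 344.7 and 349.6 FPKM, which is 1.04 times vehicle at 10 µM. By kinase type, the 36 members with an active kinase summed to 565.0 FPKM in vehicle-treated cells, 453.8 at 5 µM and 417.7 at 10 µM, while the 5 with a weak or dead kinase (PTK7, RYK, ROR1, ERBB3 and EPHB6) summed to 108.7, 123.2 and 121.0 FPKM. Their share of the summed receptor level was 15.6% with vehicle, 20.6% at 5 µM and 21.5% at 10 µM. These sums and shares depend on FGFR1 and EPHA3. Both are in the active class, and together they held 359.5, 254.1 and 212.9 FPKM of its sum. The shares by kinase type without this pair were not counted.

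**Figure D3:**
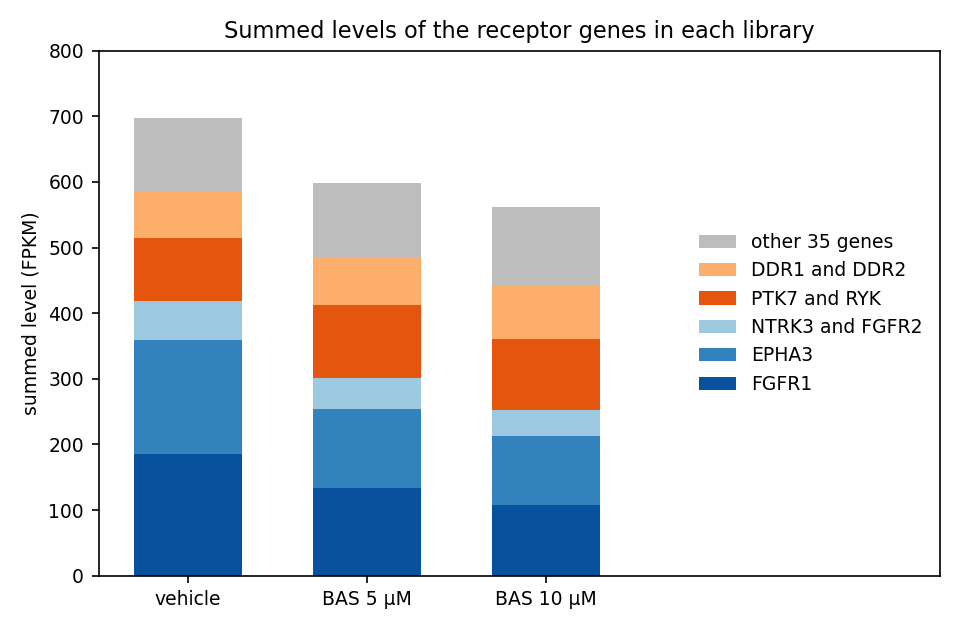
Summed levels in FPKM of the 43 receptor genes in each library, stacked by gene or group of genes, with bars starting at 0. The blue parts (FGFR1, EPHA3, and NTRK3 with FGFR2) shrink with dose, and the parts above them together stand at 277.9, 298.1 and 310.2 FPKM, while the whole bar stands at 696.8, 598.8 and 562.4 FPKM.

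The 20 members under the filter held several families that are prominent in other cancers. The ERBB family, receptors of epidermal growth factor and neuregulins, had no member past the filter and summed to 2.18 FPKM in vehicle-treated cells, 1.94 at 5 µM and 2.16 at 10 µM. EGFR had 0.08 FPKM in the vehicle library and was listed at 0 in both BAS libraries. ERBB2 (HER2), the partner receptor of the family, was at 0.53, 0.69 and 0.73 FPKM, and ERBB3, a neuregulin receptor with a weak kinase, at 0.72, 0.79 and 1.05 FPKM. ERBB4, another neuregulin receptor, was at 0.85, 0.46 and 0.38 FPKM, so it had its highest level with vehicle where ERBB3 had its lowest. At these levels the error of a value is unknown, and no fold is read from them.

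Receptors of blood vessels and blood cells under the filter were near 0, while the angiopoietin receptor TEK lay just inside it. FLT1 (VEGFR1) was at 0.15, 0.23 and 0.01 FPKM, FLT4 (VEGFR3) at 0.24, 0.20 and 0.38 FPKM, TIE1 at 0.03, 0.05 and 0.04 FPKM and the macrophage receptor CSF1R at 0.01, 0.06 and 0.18 FPKM. PDGFRA was at 0.48, 0.65 and 0.65 FPKM and PDGFRB at 0.86, 1.15 and 0.77 FPKM. For PDGFRA, 22.8% of the 50-base sequences of its longest coding transcript also occur in a transcript annotated to another gene, so reads of 50 bases cannot be assigned there with certainty. This share was at most 4.85% (TYRO3) in the other members. RET, the receptor of the GDNF family, was listed at 0 with vehicle, at 0.01 FPKM at 5 µM and at 0 at 10 µM. MST1R (RON) and LTK were at or under 0.04 FPKM in every library. In all, the 20 genes ranged up to 0.86 FPKM in vehicle-treated cells, 1.15 at 5 µM and 1.05 at 10 µM, and 1, 2 and 5 of them were listed at 0.

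**Figure D4:**
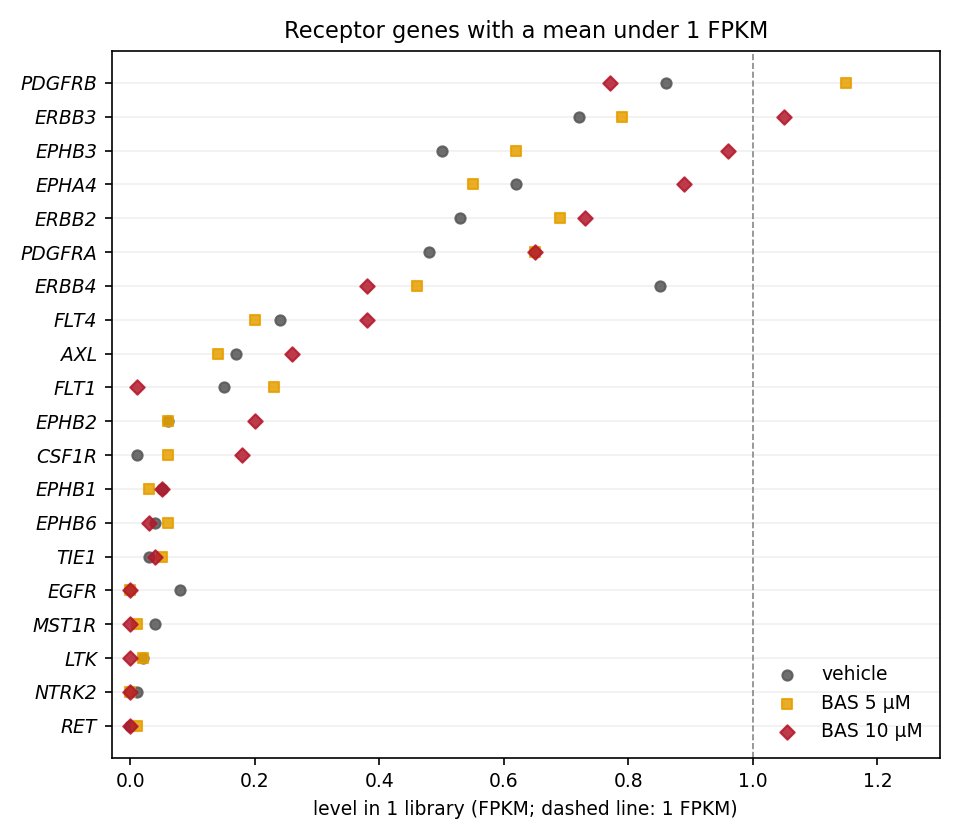
Levels in FPKM on a linear axis of the 20 receptor genes with a mean under 1 FPKM, one row per gene and one point per library (circle, vehicle; square, 5 µM BAS; diamond, 10 µM BAS; dashed line, 1 FPKM). PDGFRB at 5 µM and ERBB3 at 10 µM are the points past 1 FPKM, at 1.15 and 1.05 FPKM.

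The ligand genes of these receptors held a few large differences, led by GDF15, FGF21, VEGFA and HBEGF, all higher with BAS. Of 72 listed ligands, 61 had a row and 34 passed the filter. This list, like the others, was chosen with earlier results of these data known. Its share beside that of all genes is therefore a description and no test. At 10 µM 4 of the 34 (11.8%) were at least 2-fold higher, where 1.31% of all genes were, and 0 were 2-fold lower, where 0.643% were. With a pseudocount of 0.1 in place of 1, 1 ligand was 2-fold lower at 10 µM, where 145 of all 11512 genes were. It was NRG2, at 0.452 times vehicle. GDF15, FGF21 and VEGFA are known as secreted factors that respond to cell stress. The median difference of the ligands was 0.12 at 10 µM, where that of all genes was 0.05. At 5 µM 3 of the 34 were 2-fold higher, where 0.539% of all genes were, and 0 were 2-fold lower, where 0.208% were.

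For the ERBB receptors, which were nearly absent, HBEGF was at 5.91 FPKM in vehicle-treated cells, 12.40 at 5 µM and 15.12 at 10 µM. Neuregulin 1 (NRG1), the ligand of ERBB3 and ERBB4, was at 6.39, 10.01 and 11.72 FPKM, and neuregulin 2 (NRG2) at 3.32, 1.92 and 1.5 FPKM. TGFA, a ligand of EGFR, was at 0.82, 1.06 and 1.52 FPKM. The neuregulins thus lay on opposite sides of vehicle, and HBEGF, NRG1 and TGFA were lowest with vehicle.

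For the FGFR family, FGF2, a ligand of FGFR1, was at 4.56 FPKM in vehicle-treated cells, 5.43 at 5 µM and 7.49 at 10 µM, and FGF9 at 4.29, 5.83 and 5.97 FPKM. Both were lowest with vehicle, where FGFR1 was highest. FGF5 had 1.75, 1.52 and 1.75 FPKM and FGF7 had 1.91, 1.87 and 1.99 FPKM. FGF21, a hormone that needs the co-receptor KLB beside FGFR1, was at 4.93, 38.43 and 53.94 FPKM, or 10.9 times vehicle at 10 µM, and KLB was at 0.14, 0.19 and 0.08 FPKM. The heparan sulfate proteoglycans that hold fibroblast growth factors at the cell surface were led by SDC1 at 108.58, 108.20 and 104.08 FPKM and GPC3 at 80.27, 78.48 and 73.59 FPKM. SDC2 was at 6.71, 9.06 and 11.12 FPKM, SDC3 at 7.93, 9.37 and 10.48 FPKM and SDC4 at 1.85, 1.78 and 2.44 FPKM. GPC1 was at 13.87, 15.23 and 16.22 FPKM and GPC4 at 9.75, 10.41 and 11.98 FPKM. Of 17 listed co-receptors 9 passed the filter. At 10 µM 0 of the 9 were 2-fold higher, where 1.31% of all genes were, and 0 were 2-fold lower, where 0.643% were, so that these counts are near the background. At 1.5-fold, 2 of the 9 (22.2%), SDC2 and NRP2, were higher, where 6.04% of all genes were. The median of the 9 was 0.27, where that of all genes was 0.05.

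Ligands of MET and of the platelet-derived growth factor, VEGF and GDNF receptors included some of the highest in the list. HGF, the ligand of MET, was at 59.17 FPKM in vehicle-treated cells, 53.37 at 5 µM and 47.08 at 10 µM, lower with dose where MET was higher. The platelet-derived growth factor gene PDGFC was at 88.37, 92.69 and 87.97 FPKM, PDGFB at 6.19, 8.40 and 7.83 FPKM, PDGFD at 5.76, 6.10 and 6.39 FPKM and PDGFA at 3.65, 4.59 and 3.71 FPKM. Their receptors PDGFRA and PDGFRB were both under the filter. Placental growth factor (PGF), the ligand of FLT1, was at 99.64, 99.25 and 79.81 FPKM, and VEGFA was at 6.45, 15.64 and 19.33 FPKM, or 3.00 times vehicle at 10 µM. VEGFB was at 34.20, 31.51 and 35.94 FPKM, VEGFC at 2.56, 3.10 and 3.74 FPKM and VEGFD at 10.38, 9.69 and 9.63 FPKM. NRP2, a VEGF and semaphorin co-receptor, was at 5.56, 6.61 and 9.58 FPKM. Neurturin (NRTN), a GDNF family ligand of RET, was at 51.73, 44.20 and 37.23 FPKM with RET at 0 or 0.01 FPKM. GDF15, whose receptor is GFRAL with RET, was at 3.60, 40.43 and 62.59 FPKM, or 17.4 times vehicle at 10 µM, and GFRAL was at 0.51, 0.19 and 0.18 FPKM.

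Of the neurotrophins, NTF3, the ligand of NTRK3, was at 1.03 FPKM in vehicle-treated cells, 1.51 at 5 µM and 1.98 at 10 µM. NTF3 was lowest with vehicle, and NTRK3 highest. NGFR, the p75 receptor that binds all neurotrophins, was at 80.84, 95.86 and 103.96 FPKM, above every member but FGFR1 and EPHA3 in each library. For the ephrin receptors, the ligand EFNA5 was at 13.17, 12.24 and 10.14 FPKM, EFNA4 at 9.72, 12.79 and 14.29 FPKM, EFNA3 at 5.96, 6.64 and 7.50 FPKM and EFNA1 at 4.30, 5.49 and 4.75 FPKM. So EFNA5 was lowest and EFNA4 and EFNA3 were highest at 10 µM, though EFNA3 shares 46.4% and EFNA4 11.5% of its 50-base sequences with another annotated gene. EFNB1 was at 19.89, 22.71 and 23.19 FPKM, EFNB2 at 5.66, 4.48 and 4.94 FPKM and EFNB3 at 7.08, 5.16 and 5.18 FPKM. Of the TYRO3 ligands, PROS1 was at 16.09, 16.08 and 17.35 FPKM and GAS6 at 3.97, 4.26 and 4.02 FPKM. CSF1, the ligand of CSF1R, was at 3.08, 4.66 and 5.58 FPKM, KITLG at 1.23, 1.22 and 1.39 FPKM and WNT5B at 2.75, 3.10 and 3.07 FPKM.

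**Figure D5:**
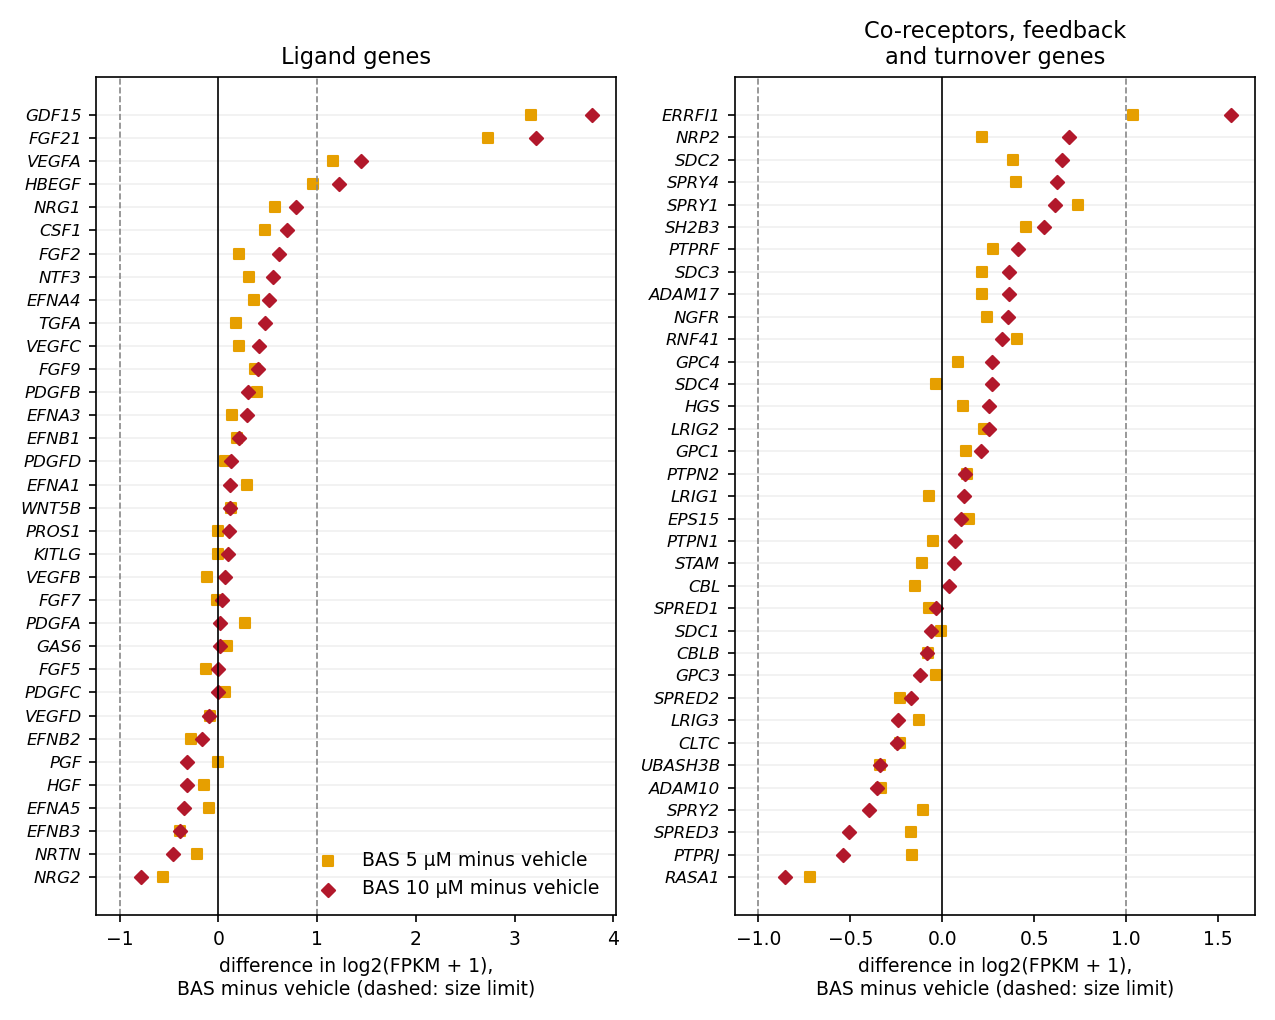
Differences in log2(FPKM + 1) from vehicle of 34 ligand genes (left) and of 9 co-receptor and 26 feedback and turnover genes (right), ordered by the value at 10 µM (square, 5 µM minus vehicle; diamond, 10 µM minus vehicle; dashed lines, the limit of 1). GDF15, FGF21, VEGFA and HBEGF on the left and ERRFI1 on the right lie past the limit at 10 µM.

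Inside the cell, the adaptors that receptors share lay on both sides of vehicle. Of 28 listed adaptors and effectors 25 passed the filter, and at 10 µM 0 of these were 2-fold higher, where 1.31% of all genes were, and 0 were 2-fold lower, where 0.643% were, which is near the background. Their median was −0.03, where that of all genes was 0.05. The largest differences were those of GAB2, a docking protein, and SHC2. GAB2 was at 1.14 FPKM in vehicle-treated cells, 1.82 at 5 µM and 2.37 at 10 µM. At 10 µM that is 2.08 times vehicle as a plain ratio, but under the limit on the log2(FPKM + 1) scale. SHC2 was at 4.07, 7.10 and 6.50 FPKM. Lower were PIK3R3 and PIK3R1, regulatory subunits of PI3K, with 13.94, 10.62 and 9.81 FPKM (PIK3R3) and 13.39, 9.33 and 9.89 FPKM (PIK3R1). GRB10 and GRB14, adaptors that restrain the insulin receptor, had 44.31, 32.75 and 31.81 FPKM (GRB10) and 5.18, 4.06 and 3.77 FPKM (GRB14). For PIK3R3, 22.4% of the 50-base sequences are shared with another annotated gene.

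Of 28 measured genes of receptor feedback and turnover 26 passed the filter. On the log2(FPKM + 1) scale 1 of these was 2-fold higher at 10 µM (3.85%, where 1.31% of all genes were) and 0 were 2-fold lower (0.643% of all genes). The higher one was ERRFI1 (MIG6), which binds and inhibits the kinases of the ERBB family, at 18.53 FPKM in vehicle-treated cells, 39.00 at 5 µM and 56.97 at 10 µM, or 3.07 times vehicle at the higher dose. RASA1, a RAS inhibitor recruited by receptors, was at 27.20, 16.14 and 14.56 FPKM and had the lowest difference of the list, −0.86 at 10 µM. SPRY1, a feedback inhibitor of receptor signals, was at 7.31, 12.86 and 11.68 FPKM, and SPRY4 of the same family at 2.81, 4.02 and 4.87 FPKM. SPRY2, also of that family, lay on the other side of vehicle, at 9.22, 8.51 and 6.76 FPKM. SH2B3 (LNK), which restrains cytokine and growth factor receptors, was at 2.98, 4.45 and 4.83 FPKM. PTPRJ, a phosphatase of receptor tyrosines, was at 2.56, 2.17 and 1.45 FPKM. The list lay on both sides of vehicle, with 15 of the 26 above it at 10 µM and a median of 0.07, where that of all genes was 0.05.

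Of 13 other receptor tyrosine kinases outside the members, 3 passed the filter. EPHA6 was at 5.56, 5.37 and 5.26 FPKM, LMTK2 at 5.18, 4.31 and 4.97 FPKM and AATK at 3.36, 3.05 and 2.11 FPKM. At 10 µM 0 of these 3 were 2-fold higher, where 1.31% of all genes were, and 0 were 2-fold lower, where 0.643% were. With 3 genes a count of 0 is near the background. RNA levels measure neither receptor protein at the surface nor its phosphorylation.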

How the data were processed

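RNA-seq libraries from H446 cells, 1 per group and 3 in all, were read as single-end reads of 50 bases, per the labels' protocols. The files deposited by the authors hold FPKM, as their headers state. Trim Galore, BWA, Bowtie2, Cufflinks, Cuffdiff and build hg19 are named in the submitters' processing notes, without versions or roles. The annotation, and whether samples were scaled to each other, were not given in the sources used here. In the treated samples the FPKM columns are called ASB85 and ASB810, and they were read as 5 µM and 10 µM because the labels of their files say so; each dose value rests on that. Values have 2 decimals and no counts, so depth and counting error are unknown.

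Members and gene lists were chosen with earlier results of these data known. Differences are of log2(FPKM + 1) among genes averaging 1 FPKM or more, and the size limit is 1. The calculation was tested on simulated data. Members are named whatever their values, as are ligands and co-receptors past the filter, and up to 6 genes of each other list by their difference at 10 µM. KLB and GFRAL lie under the filter and were named after their values were seen. SPRY2, past the filter, was also named after its values were seen. Shared 50-base sequences, GC content and length came from the longest coding transcript per symbol in GENCODE 29, found for 11363 of the 11512 genes (98.7%), and promoters from RefSeq. Some genes are not reported here. Alternatives were pseudocounts of 0.5 and 0.1, other filters, 3 scalings, trend removal, the limit of 1.5-fold, and means. Python 3.11.15, numpy 2.4.6, pandas 2.3.3 and matplotlib 3.10.9 were used.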

Additional observations from a re-analysis of the deposited data

How the results depend on the processing

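No paired analysis was possible because each group holds 1 library, and no library could be left out. The count of members past 2-fold was 0 in each direction and comparison under each pseudocount (0.5 or 0.1), without a filter, with a 5 FPKM filter, under each of the 3 scalings, duplicated symbols left out and trend removal. At 1.5-fold it was 2 lower at 10 µM, where 3.44% of all genes were. Having no filter and a pseudocount of 0.1 together was an alternative added after the data were seen. Of 43 members, 1 was then higher (CSF1R) and 1 lower (FLT1) at 10 µM, and 1 lower (FLT1) between the doses. All these values were at or under 0.23 FPKM. Of all 16793 genes, 599 were then higher and 427 lower at 10 µM, and 193 higher and 159 lower between the doses. Ligands 2-fold higher at 10 µM numbered 4, where 1.31% of all genes were higher. They numbered 5 with that pair of changes and 7 at 1.5-fold, where 6.04% of all genes were higher. Ligands 2-fold lower at 10 µM numbered 0, and 1 with a pseudocount of 0.1 alone, where 145 of 11512 genes were lower. At 1.5-fold the count was 1, where 3.44% of all genes were lower, and with the pair it was 5. Each member median moved by under 0.1 in each of these alternatives, but the medians are themselves under 0.1 in size and their sign was not always kept. That at 10 µM was 0.06, and −0.015 with quantile normalization, 1 of the 3 scalings. That at 5 µM was −0.02, and 0.035 with trends removed. At 10 µM FGFR1 lay between −0.84 and −0.78, EPHA3 between −0.78 and −0.64, NTRK3 between −0.65 and −0.31 and MET between 0.44 and 0.58. At 5 µM, NTRK3 was −0.26, and 0.04 with GC and length trends removed (the cause was not tested). The small differences of DDR1 at 5 µM, of INSR, of DDR2 and EPHA7, of FGFR3, IGF1R and ROR1 at 10 µM and of IGF2R at 5 µM did not keep their sign in every alternative. The unknown depth limits what can be said of the 20 genes under 1 FPKM.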
